A study of Arabidopsis thaliana with 16 samples.

Results

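The comparison took whole Arabidopsis thaliana seedlings after 3 d of ethanol vapour and set them against control seedlings of the same duration. Its members were the columns labelled EtOH_3d replicates 1 to 4 and moc_3d replicates 1, 2 and 4, which are 7 of the 16 columns of the deposited count table. EtOH_3d seedlings were 11 d old when gaseous ethanol was given and stayed in it for 3 d. The moc_3d seedlings had the same age and duration. The word moc is not spelled out in the labels and is read here as the untreated control. Both groups grew on agar plates under long days, and RNA was taken from whole plants. The labels used here name no genotype, no ethanol dose and, although the series title speaks of freezing, no cold step for either group. The fourth control column, moc_3d replicate 3, held the same count as moc_1d replicate 1 for every gene and was left out. The groups EtOH_1d (4 libraries) and moc_1d (3 libraries), 13 d old at the start and kept for 1 d, entered the estimate of spread and a single comparison of the responses. No label ties a replicate to a plate of its own, so a p-value here speaks of the spread among these libraries, which may be technical.

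Seedlings that run short of sugar or light change their metabolism through the kinase SnRK1 and bZIP transcription factors. Transcripts of the dark-inducible (DIN) genes, of amino acid and cell wall breakdown and of autophagy are known to rise in that state, and sugar lowers them again. Ethanol itself is oxidised to acetaldehyde by alcohol dehydrogenase and on to acetate, which acetyl-CoA synthetase brings into central metabolism.

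Total counts lay between 3695511 and 6340751 in EtOH_3d and between 5407735 and 7696919 in moc_3d. Relative to these raw totals, 3 counts in 1 library correspond to 0.473 to 0.812 CPM (the usual counts scaled to a common library total) in EtOH_3d and to 0.390 to 0.555 CPM in moc_3d. The CPM of single genes and lists below are on TMM-scaled totals, which shift these floors slightly. A library stood apart in each group. EtOH_3d replicate 2, the shallowest library, lay at 45.6 on the first principal component of the 7 libraries (23.0% of the variance), where the others lay between -17.3 and -0.58. On the second component (19.5%) moc_3d replicate 1 lay at 31.6 and EtOH_3d replicate 1 at -31.3. Chloroplast genes took 1.53% to 1.92% of the counts in EtOH_3d and 1.08% to 1.5% in moc_3d. Leaf markers such as RBCS1A, a small subunit of Rubisco (23258 ± 1118 CPM in EtOH_3d and 23928 ± 1547 CPM in moc_3d), and root markers such as PYK10, a root beta-glucosidase (1107 ± 44.6 CPM in EtOH_3d and 1194 ± 15.4 CPM in moc_3d), were abundant in both groups (SD, n = 4 and 3, raw totals). The floral genes AP1, AP3, PI and AG averaged at most 1.79 CPM in either group.

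After 3 d of ethanol, transcripts linked to low sugar and darkness stood higher, and a smaller set, among it the methionine synthase MS2 and the glyoxalase GLX1, stood lower. The changes were small. By edgeR's quasi-likelihood test, 102 of 18419 genes tested (0.554%) had an adjusted p under 0.05, here termed called. Of these 81 (0.44% of the genes tested) were higher and 21 (0.114%) lower in EtOH_3d. The median absolute log2 fold change of the called genes was 0.40, and 69 of them changed by less than 0.5 on that scale. Changes of 1 or more were limited to AT5G11310 (log2 fold change 1.66), a pentatricopeptide repeat gene at 5.39, 2.96, 2.36 and 2.48 CPM in EtOH_3d and 1.1, 0.969 and 1.03 CPM in moc_3d, and the lowered genes CYP707A3 (-1.39) and UMAMIT14 (-1.24). AT5G11310 was not called without EtOH_3d replicate 1 or moc_3d replicates 1, 2 or 4 (adjusted p = 0.135 to 0.257), and the calls of the other two are taken up below. In 76 of the 81 higher genes and in all 21 lower ones the 7 libraries split by treatment without overlap. Over all genes tested, 4.16% had every EtOH_3d library above every moc_3d library and 3.58% the reverse. Unadjusted p-values under 0.05 numbered 1624, where 921 would pass by chance. Called genes were well counted, with a median of 99.96 CPM against 13.8 CPM for all genes tested, and the median log2 fold change of all genes was -0.0011.

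**Figure D1:**
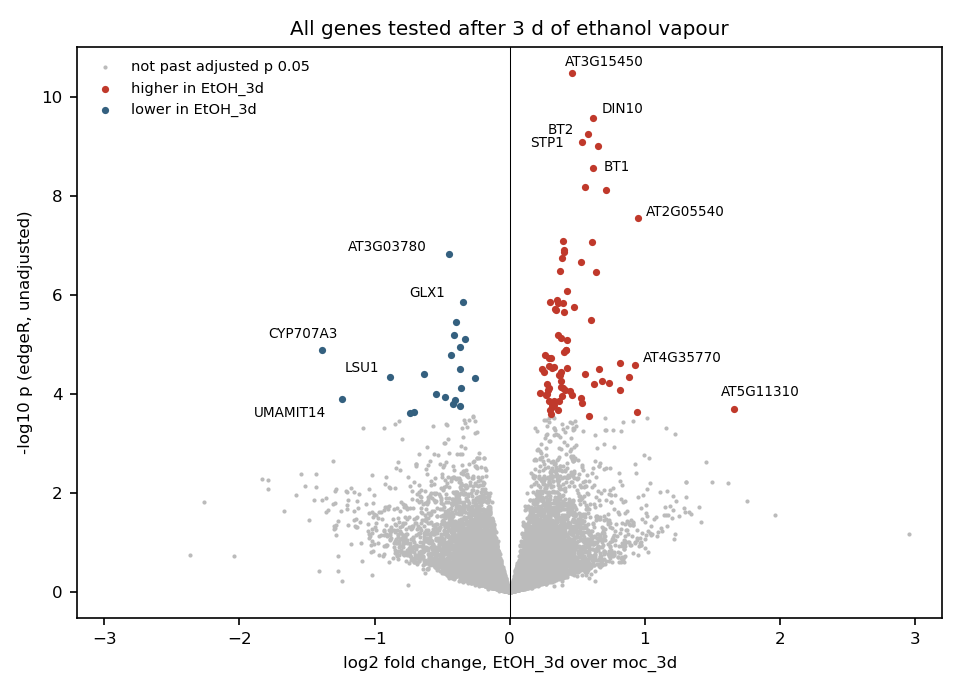
Log2 fold change (EtOH_3d over moc_3d, x axis) and -log10 of the unadjusted edgeR p (y axis) for the 18419 genes tested, with the 81 higher genes in red, the 21 lower in blue and the rest in grey. Most called genes lie within 0.5 of 0, and the smallest p-values belong to higher genes.

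The strongest single signal came from genes that darkness and low sugar are known to raise. AT3G15450, annotated as an aluminium-induced protein with YGL and LRDR motifs (TAIR10.1 chromosome 3, 5212984 to 5214124, + strand), had the smallest p of all genes. It stood at 1116, 1152, 1224 and 1175 CPM in EtOH_3d seedlings, against 789.5, 875 and 879 CPM in moc_3d seedlings. All 4 EtOH_3d libraries lay above the 3 controls, and the log2 fold change was 0.46 ± 0.06 (SE, adjusted p = 5.98e-07). In every such list of CPM values the libraries follow their replicate numbers, 1 to 4 for EtOH_3d and 1, 2 and 4 for moc_3d. DIN10, a dark-inducible raffinose synthase family gene (chromosome 5, 6833564 to 6836862, + strand), had 279, 234, 276 and 249.6 CPM in EtOH_3d seedlings, against 145, 186 and 175 CPM in moc_3d seedlings. Its groups did not overlap either, with moc_3d replicate 1 the lowest, and the log2 fold change was 0.62 ± 0.08 (SE, adjusted p = 2.39e-06). SEN1 (AT4G35770, also known as DIN1), a gene induced by darkness and senescence, had 184, 171, 251 and 199 CPM in EtOH_3d seedlings, against 97.5, 112 and 108 CPM in moc_3d seedlings. EtOH_3d replicate 3 was the highest, and the change of 0.93 ± 0.14 (SE, adjusted p = 0.0102) is a fold of 1.91. SEN1 was not called without moc_3d replicates 1 or 4 (adjusted p = 0.054 to 0.0774), although without replicate 1 its change was still 0.88.

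BTB/TAZ proteins are scaffold proteins whose transcripts respond to sugar and nitrogen, and 3 of the 5 genes tested, BT1, BT2 and BT4, rose. Of all genes tested 0.44% were called higher. BT2 (chromosome 3, 17907767 to 17910738, - strand) had 278, 269, 262 and 223 CPM in EtOH_3d seedlings, against 155, 182 and 179.9 CPM in moc_3d seedlings. BT1 had 118, 138, 127 and 115 CPM in EtOH_3d seedlings, against 73.7, 88.3 and 80.2 CPM in moc_3d seedlings. Both were higher in every EtOH_3d library than in any control, by 0.58 ± 0.07 for BT2 and 0.62 ± 0.09 for BT1 (SE, adjusted p = 3.35e-06 and 8.41e-06). BT4 (46.7, 39.2, 53.9 and 47.0 CPM in EtOH_3d, 34.2, 36.0 and 32.2 CPM in moc_3d) changed by 0.46 ± 0.11 (SE, adjusted p = 0.0238), again without overlap. It was not called without EtOH_3d replicate 3 or moc_3d replicates 1, 2 or 4 (adjusted p = 0.0523 to 0.209). BT3 had 0.41 ± 0.44 (adjusted p = 0.866) and BT5 0.19 ± 0.09 (adjusted p = 0.526), and in both the groups overlapped.

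The energy starvation list holds 20 genes known from darkness, sugar starvation or SnRK1 signalling, all of them tested. Of these 9 were called, all higher, and 18 had a positive log2 fold change, with a median of 0.44. Over all genes tested, 0.44% were called higher and 49.8% were positive, with a median of -0.0011. Besides AT3G15450, DIN10, SEN1, BT1, BT2 and BT4 they were DYL1, a dormancy-associated gene (0.42 ± 0.07), BXL1, a cell wall xylosidase (0.64 ± 0.09), and TPS8, of the trehalose phosphate synthase family (0.38 ± 0.08), which was not called without EtOH_3d replicate 3 or moc_3d replicate 1 (adjusted p = 0.0504 to 0.145). DYL1 stood at 282, 312, 349 and 284 CPM in EtOH_3d seedlings, against 212, 220.4 and 254 CPM in moc_3d seedlings. TPS8 stood at 66.6, 72.0, 72.2 and 69.8 CPM in EtOH_3d seedlings, against 50.3, 54.8 and 56.4 CPM in moc_3d seedlings, and in both the groups lay apart. Summed over the 20 genes, the level was 3089.6, 3178, 3439 and 3131 CPM in EtOH_3d and 2100.1, 2347 and 2341 CPM in moc_3d. The lowest ethanol library thus lay above the highest control, and moc_3d replicate 1 was the lowest of all. Members that did not pass include the asparagine synthetase ASN1, which recycles nitrogen in darkness, with 116, 159, 158 and 129 CPM in EtOH_3d seedlings, against 93.7, 76.0 and 90.4 CPM in moc_3d seedlings. Every ethanol library was above every control, yet the log2 fold change of 0.70 ± 0.18 had an adjusted p of 0.219 by edgeR. The glutamate dehydrogenase GDH2 had 0.32 ± 0.08 (adjusted p = 0.0517). DIN9 (-0.67, adjusted p = 0.606) and DIN2 (-0.20, adjusted p = 0.892) were the negative members, at a few CPM in both groups. Without moc_3d replicate 1 the list's median was 0.39 and 6 members were called, against 0.44 and 9 with it. Its genes were chosen with earlier results of these libraries known, so their count is no independent evidence of a direction.

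**Figure D2:**
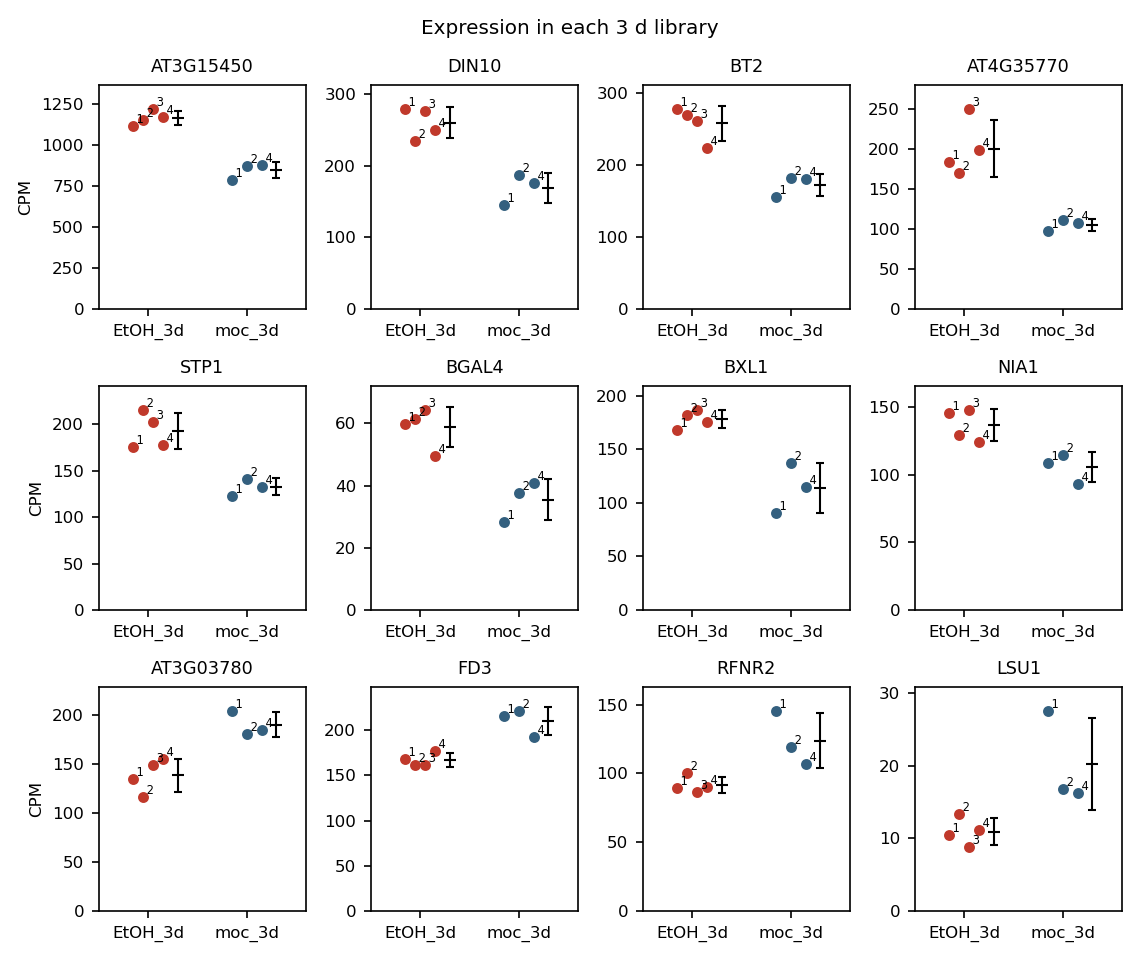
CPM (y axis, from 0) of 12 called genes in each library of 3 d, EtOH_3d in red on the left and moc_3d in blue on the right, with replicate numbers, and mean ± SD as bars (4 and 3 libraries). In each panel the EtOH_3d and moc_3d points do not overlap. AT4G35770 is SEN1 and AT3G03780 is MS2.

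Promoters of the genes with the smallest p are shown because a short sequence recurs there among the higher genes. Each line gives the 250 bases before the annotated start in TAIR10.1, 5′ to 3′ on the gene's strand, with matches to TTATCC or TATCCA on either strand in capitals (GGATAA and TGGATA are the reverse complements). The last line is MS2, the lower gene with the smallest p.
AT3G15450 (chr3:5212734-5212983, + strand): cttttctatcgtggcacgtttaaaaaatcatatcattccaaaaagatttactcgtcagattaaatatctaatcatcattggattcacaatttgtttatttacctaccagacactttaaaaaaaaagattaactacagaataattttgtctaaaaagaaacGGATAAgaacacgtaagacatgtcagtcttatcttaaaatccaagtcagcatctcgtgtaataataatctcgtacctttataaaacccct
DIN10 (chr5:6833314-6833563, + strand): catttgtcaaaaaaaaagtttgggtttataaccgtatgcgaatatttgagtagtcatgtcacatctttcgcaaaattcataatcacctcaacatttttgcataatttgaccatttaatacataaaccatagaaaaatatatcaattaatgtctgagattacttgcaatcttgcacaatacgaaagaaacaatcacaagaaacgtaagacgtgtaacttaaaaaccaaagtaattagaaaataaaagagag
BT2 (chr3:17910739-17910988, - strand): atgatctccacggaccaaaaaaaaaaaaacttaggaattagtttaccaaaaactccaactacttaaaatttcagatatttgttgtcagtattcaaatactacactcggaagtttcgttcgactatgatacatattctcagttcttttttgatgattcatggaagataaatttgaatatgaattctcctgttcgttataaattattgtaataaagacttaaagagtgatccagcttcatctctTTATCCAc
STP1 (chr1:3776986-3777235, + strand): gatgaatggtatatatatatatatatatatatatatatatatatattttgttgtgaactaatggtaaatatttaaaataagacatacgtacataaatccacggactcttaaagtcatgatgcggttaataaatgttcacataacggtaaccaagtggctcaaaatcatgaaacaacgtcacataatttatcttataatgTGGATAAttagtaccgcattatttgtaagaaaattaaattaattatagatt
AT5G14120 (chr5:4555571-4555820, + strand): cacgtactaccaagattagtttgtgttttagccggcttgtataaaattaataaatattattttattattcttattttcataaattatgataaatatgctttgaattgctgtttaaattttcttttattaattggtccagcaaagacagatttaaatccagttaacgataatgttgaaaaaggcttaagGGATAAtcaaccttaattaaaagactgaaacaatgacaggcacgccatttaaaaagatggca
MS2 (chr3:956612-956861, + strand): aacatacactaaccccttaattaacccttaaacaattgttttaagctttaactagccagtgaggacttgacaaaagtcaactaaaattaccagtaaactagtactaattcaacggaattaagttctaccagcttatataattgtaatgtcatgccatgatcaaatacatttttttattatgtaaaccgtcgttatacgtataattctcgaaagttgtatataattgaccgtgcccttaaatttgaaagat

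TATCCA is known from sugar-repressed amylase genes of rice and TTATCC from sugar-repressed genes of Arabidopsis. The pair overlap in TTATCCA, as in BT2, where that run begins 8 bases before the start, and in STP1, where it lies on the other strand. AT3G15450 and AT5G14120 carry TTATCC alone, 90 and 62 bases before the start. DIN10 and MS2 hold neither motif in this window. From 250 bases before to 50 after the start, at least 1 of the pair was found in 38 of 78 promoters of higher genes (48.7%), in 6 of 21 of lower genes (28.6%) and in 4471 of all 18244 nuclear genes tested (24.5%). In the energy starvation list 11 of 20 promoters held one (55%). TTATCC, with or without TATCCA, was in 35.9% of the higher, 14.3% of the lower and 15.9% of all promoters, and TATCCA was in 39.7% of the higher, 23.8% of the lower and 16.8% of all promoters. Among the other motifs searched on both strands, the G-box CACGTG was in 6.41% of the higher, 9.52% of the lower and 8.87% of all promoters. In the energy starvation list 4 of 20 promoters held it (20%). ACGTGG, which overlaps the G-box by 5 letters when CACGTGG is present, was in 8.97% of the higher, 0% of the lower and 11.0% of all promoters, and in 15.0% of the energy starvation list. ACTCAT, the bZIP site of the proline dehydrogenase promoter, was in 19.2% of the higher, 14.3% of the lower and 13.9% of all promoters, and in 15.0% of that list. These are counts of letters without a test and do not show that a protein binds there.

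Sugar transport gave 1 call among 19 transporters, all tested, against 0.44% called higher over all genes tested. STP1, a proton-coupled hexose importer of the plasma membrane (chromosome 1, 3777236 to 3780823, + strand), had 176, 216, 202 and 177 CPM in EtOH_3d seedlings, against 123, 142 and 133 CPM in moc_3d seedlings. Its groups did not overlap, EtOH_3d replicate 2 was the highest, and the log2 fold change was 0.53 ± 0.07 (SE, adjusted p = 3.62e-06). STP4, another member of that family, had 0.39 ± 0.10 (adjusted p = 0.0603), and the SWEET and SUC exporters and loaders lay between -0.14 and 0.29, none of them called. The list's median was 0.10. AT5G14120, a major facilitator superfamily gene outside this list (chromosome 5, 4555821 to 4558710, + strand), had 85.6, 93.5, 98.3 and 99.3 CPM in EtOH_3d seedlings, against 51.2, 65.3 and 62.5 CPM in moc_3d seedlings, with a log2 fold change of 0.65 ± 0.09 (SE, adjusted p = 3.62e-06). The PQ-loop transmembrane gene AT4G36850 had 102, 118, 119.6 and 105 CPM in EtOH_3d seedlings, against 74.8, 77.8 and 74.1 CPM in moc_3d seedlings. This was a change of 0.55 ± 0.08 (SE, adjusted p = 1.69e-05) with the groups apart.

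Some enzymes that trim cell wall sugars were raised as well. Of 17 genes in the cell wall glycosidase list 15 were tested, and 4 of them were called, all higher. The share called higher over all genes tested was 0.44%. BXL1 had 168, 182, 187 and 176 CPM in EtOH_3d seedlings, against 90.4, 137 and 115 CPM in moc_3d seedlings. The low control is moc_3d replicate 1, and without it the change was 0.50 in place of 0.64, still called (adjusted p = 0.000364). Its relative BXL2 had 21.8, 21.0, 22.7 and 22.2 CPM in EtOH_3d seedlings, against 14.5, 13.8 and 13.5 CPM in moc_3d seedlings. Replicates were close and the groups apart, at 0.66 ± 0.15 (SE, adjusted p = 0.011), although it was not called without moc_3d replicates 2 or 4 (adjusted p = 0.0529 to 0.0874). The beta-galactosidase BGAL4 had 59.9, 61.5, 64.4 and 49.6 CPM in EtOH_3d seedlings, against 28.2, 37.5 and 40.9 CPM in moc_3d seedlings, a change of 0.71 ± 0.10 (SE, adjusted p = 1.72e-05). BGAL1 had 219.8, 179, 252 and 214 CPM in EtOH_3d seedlings, against 144, 172 and 178 CPM in moc_3d seedlings. Its change was smaller, 0.40 ± 0.09 (SE, adjusted p = 0.0196), and it was not called without EtOH_3d replicates 1, 3 or 4 or moc_3d replicate 1 (adjusted p = 0.0556 to 0.145). BGAL3 had -0.25 ± 0.10 and the xylosidase XYL1 -0.04 ± 0.07, both without a call. Summed levels were 1357, 1241, 1373 and 1206 CPM in EtOH_3d and 1034, 1097 and 1043 CPM in moc_3d. A xylose isomerase family gene outside the list, AT5G57655, rose by 0.40 ± 0.07, with 138, 138, 141 and 134 CPM in EtOH_3d seedlings, against 108, 108 and 98.8 CPM in moc_3d seedlings.

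Branched-chain amino acid breakdown feeds respiration when sugar is short. All 14 genes of this list were tested, 2 were called higher by edgeR, and 12 were positive with a median of 0.24. DESeq2 called 1 member and limma-voom 0. Over all genes tested, 0.44% were called higher and 49.8% were positive. MCCA, a subunit of methylcrotonyl-CoA carboxylase in leucine breakdown, had 33.3, 26.3, 43.5 and 30.1 CPM in EtOH_3d seedlings, against 19.8, 23.1 and 22.5 CPM in moc_3d seedlings. EtOH_3d replicate 3 was the highest and replicate 2 lay just above the controls, at a log2 fold change of 0.62 ± 0.14 (SE, adjusted p = 0.0176). BCAT-2, a transaminase of the first step, had 14.5, 5.64, 10.2 and 8.33 CPM in EtOH_3d seedlings, against 6.77, 4.01 and 4.92 CPM in moc_3d seedlings, so its groups overlapped, at 0.94 ± 0.24 (SE, adjusted p = 0.0442). MCCA was not called without EtOH_3d replicate 3 or moc_3d replicates 1, 2 or 4 (adjusted p = 0.0529 to 0.184). BCAT-2 was not called without EtOH_3d replicates 1 or 3 or moc_3d replicates 2 or 4 (adjusted p = 0.141 to 0.297). The isovaleryl-CoA dehydrogenase IVD (0.33 ± 0.10, adjusted p = 0.196) and DIN4, a subunit of the branched-chain keto acid dehydrogenase (0.47 ± 0.13, adjusted p = 0.0693), did not pass.

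Regulators of the starvation response gave an edgeR call in each of 2 lists, where 0.44% of all genes tested were called higher. In the SnRK1 list DESeq2 called 1 member and limma-voom 0, and in the bZIP list 2 and 1. Of 7 SnRK1 subunit genes, KING1, a gamma-type subunit, was called (72.9, 75.0, 86.5 and 84.4 CPM in EtOH_3d seedlings, against 64.2, 61.4 and 65.7 CPM in moc_3d seedlings), at 0.33 ± 0.08 (SE, adjusted p = 0.0288). The groups did not overlap, and it was not called without EtOH_3d replicates 3 or 4 or moc_3d replicates 1, 2 or 4 (adjusted p = 0.0874 to 0.183). The catalytic KIN10 had -0.07 ± 0.14, with a 95% interval of -0.36 to 0.22, and AKINBETA1 had 0.37 ± 0.10 (adjusted p = 0.128). Among 9 bZIP factors of groups C and S1, bZIP1, which acts downstream of SnRK1 and is repressed by sugar, was called. It had 62.5, 63.1, 64.3 and 59.4 CPM in EtOH_3d seedlings, against 42.4, 48.0 and 48.9 CPM in moc_3d seedlings, apart in every library and changed by 0.42 ± 0.09 (SE, adjusted p = 0.00619). The locus AT5G49448 carries the same counts as bZIP1 in every library, so these are 1 signal, and it was not called without moc_3d replicate 1 (adjusted p = 0.107). Autophagy was represented by ATG8E, a ubiquitin-like protein that coats autophagosome membranes, the 1 call among 19 genes. It had 105, 107, 110.0 and 105 CPM in EtOH_3d seedlings, against 76.8, 85.4 and 80.8 CPM in moc_3d seedlings. The change of 0.40 ± 0.08 (SE, adjusted p = 0.00143) held in each fit that left out 1 of the 7 libraries, while the list's median was 0.07.

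**Figure D3:**
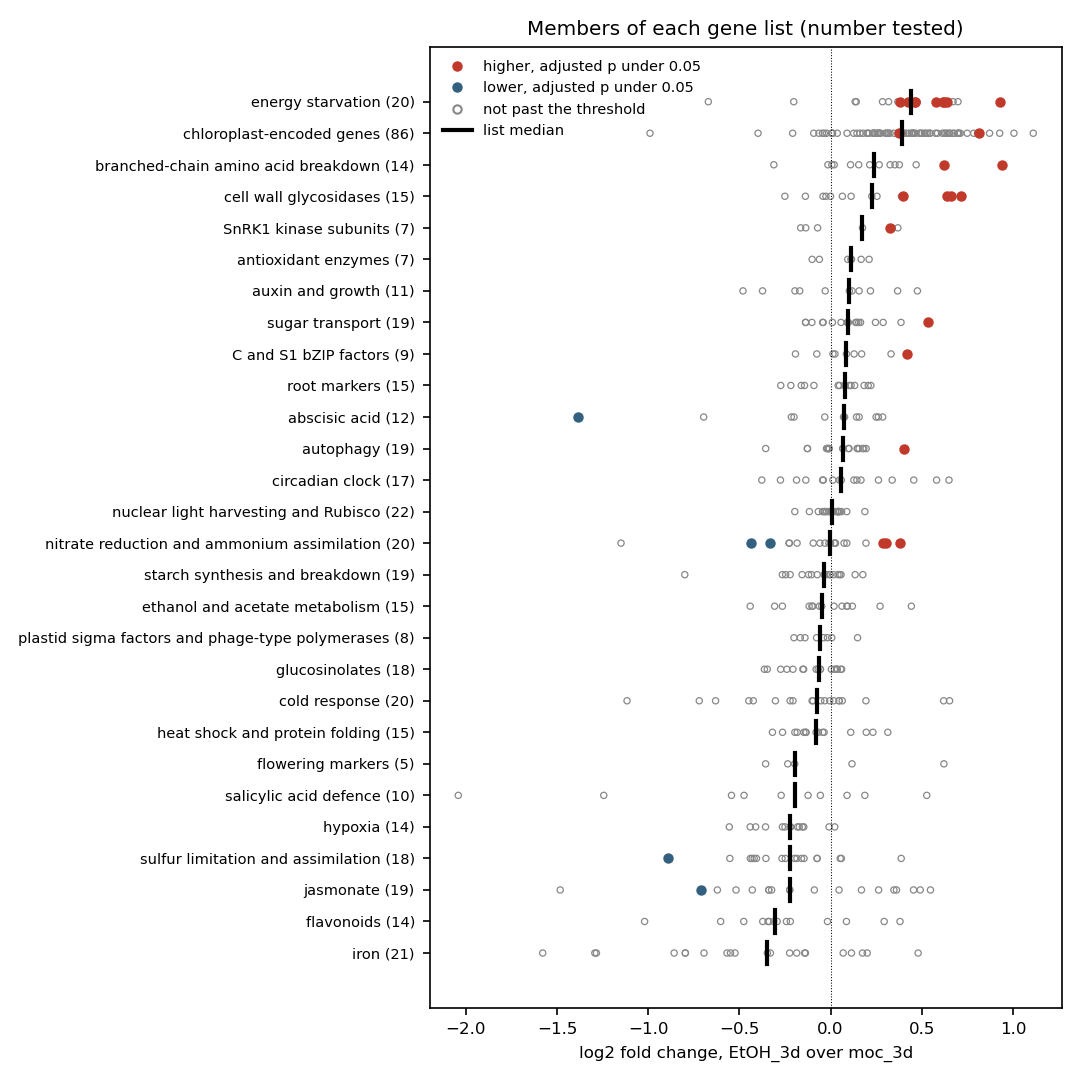
Log2 fold change (x axis, EtOH_3d over moc_3d) of each tested member of 28 gene lists (y axis, number tested in brackets), with called members filled and list medians as black bars. The energy starvation (median 0.44) and chloroplast-encoded (0.39) lists have the highest medians and the iron list (-0.35) the lowest.

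Nitrogen genes moved in both directions. All 20 genes of the nitrate and ammonium list were tested, with 3 called higher and 2 lower. The shares over all genes tested were 0.44% higher and 0.114% lower. NIA1 and NIA2 encode nitrate reductase, the first step of nitrate assimilation. NIA1 had 146, 129.8, 148 and 124 CPM in EtOH_3d seedlings, against 109, 115 and 93.5 CPM in moc_3d seedlings. NIA2 had 359.5, 346, 397 and 349 CPM in EtOH_3d seedlings, against 312, 295 and 285 CPM in moc_3d seedlings. Neither overlapped between groups, at 0.38 ± 0.08 (SE, adjusted p = 0.00416) for NIA1 and 0.29 ± 0.06 (SE, adjusted p = 0.0107) for NIA2. NIA1 was not called without moc_3d replicate 4 (adjusted p = 0.142). NIA2 was not called without EtOH_3d replicate 3 or moc_3d replicates 2 or 4 (adjusted p = 0.0609 to 0.127). The asparagine synthetase ASN2 rose by 0.30 ± 0.08 (SE, adjusted p = 0.0396), with 117, 108, 114 and 122 CPM in EtOH_3d seedlings, against 96.2, 90.6 and 94.3 CPM in moc_3d seedlings. It was not called without EtOH_3d replicates 1, 3 or 4 or moc_3d replicates 1, 2 or 4 (adjusted p = 0.0836 to 0.217).

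The 2 list genes that fell act in the next step. In roots and other tissues without light, nitrite reductase in the plastid draws its electrons from the oxidative pentose phosphate pathway through a root-type ferredoxin reductase (RFNR) and a root-type ferredoxin (FD3). FD3 had 168, 161, 161 and 177 CPM in EtOH_3d seedlings, against 216, 222 and 193 CPM in moc_3d seedlings. RFNR2 had 89.6, 100.2, 86.7 and 90.0 CPM in EtOH_3d seedlings, against 146, 119 and 107 CPM in moc_3d seedlings. Both were lower in every EtOH_3d library than in any control, with log2 fold changes of -0.33 ± 0.07 for FD3 and -0.43 ± 0.09 for RFNR2 (SE, adjusted p = 0.00419 and 0.00717). FD3 was not called without moc_3d replicates 1 or 2 (adjusted p = 0.0525 to 0.0633). RFNR2 was highest in moc_3d replicate 1 and was not called without EtOH_3d replicate 3 or moc_3d replicate 1 (adjusted p = 0.0601 to 0.163). Outside the list TRA2, a transaldolase of the pentose phosphate pathway, had 117, 101, 111 and 116 CPM in EtOH_3d seedlings, against 167, 135 and 130.4 CPM in moc_3d seedlings, at -0.37 ± 0.08 (SE, adjusted p = 0.00578). AT5G41670, of the 6-phosphogluconate dehydrogenase family, had 73.3, 71.5, 63.2 and 64.7 CPM in EtOH_3d seedlings, against 108, 80.7 and 75.5 CPM in moc_3d seedlings, at -0.37 ± 0.09 (SE, adjusted p = 0.0355). In both of these moc_3d replicate 1 was the highest. Without it the changes were -0.25 for TRA2 and -0.20 for AT5G41670, and TRA2 was no longer called (adjusted p = 0.252). AT5G41670 was not called without EtOH_3d replicates 3 or 4 or moc_3d replicate 1 (adjusted p = 0.104 to 0.606). GSR2, a cytosolic glutamine synthetase, had 509, 489.7, 491 and 513 CPM in EtOH_3d seedlings, against 595, 611 and 587 CPM in moc_3d seedlings. This small fall of -0.26 ± 0.06 (SE, adjusted p = 0.0144) was not called without moc_3d replicates 1 or 2 (adjusted p = 0.0774 to 0.102). Nitrite reductase NIR1 itself had -0.10 ± 0.08 (adjusted p = 0.811), the plastid glutamine synthetase GS2 0.02 ± 0.05 and RFNR1 -0.18 ± 0.11, and none was called. In whole seedlings less RNA per root cell and fewer root cells cannot be told apart. Of 15 tested root markers 0 were called by edgeR, DESeq2 or limma-voom (1 lower at an unadjusted p under 0.05), their median was 0.08, and their summed level was 1403, 1462, 1511 and 1459 CPM in EtOH_3d and 1548, 1545 and 1504 CPM in moc_3d.

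Methionine and carbonyl metabolism gave the 2 falls that held whichever of the 7 libraries was left out. MS2 (AT3G03780), a methionine synthase of the methyl cycle (chromosome 3, 956862 to 961032, + strand), had 134, 117, 149 and 154 CPM in EtOH_3d seedlings, against 204, 181 and 184 CPM in moc_3d seedlings. All ethanol libraries were below all controls, at -0.45 ± 0.07 (SE, adjusted p = 0.000193). GLX1, a glyoxalase I that clears methylglyoxal (chromosome 1, 3995158 to 3997965, + strand), had 287, 279, 279 and 296 CPM in EtOH_3d seedlings, against 377, 339.7 and 370.1 CPM in moc_3d seedlings. Its replicates were tight and the change was -0.34 ± 0.06 (SE, adjusted p = 0.00114). At 1 d GLX1 averaged 266 CPM in EtOH_1d and 279 CPM in moc_1d, so moc_3d was the group that stood apart.

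Other falls rested more on single libraries. CYP707A3, an abscisic acid 8'-hydroxylase that inactivates the hormone, had 1.49, 2.15, 4.1 and 4.43 CPM in EtOH_3d seedlings, against 11.5, 8.44 and 5.17 CPM in moc_3d seedlings. The controls were widely spread, and the change of -1.39 ± 0.29 (SE, adjusted p = 0.00619) was -1.11 and not called without moc_3d replicate 1 (adjusted p = 0.145). It was the edgeR call of the abscisic acid list, where 12 of 15 genes were tested and the median was 0.07, or 0.19 without moc_3d replicate 1. DESeq2 and limma-voom called 0 members of that list. LSU1, a marker of sulfur limitation, had 10.4, 13.4, 8.82 and 11.2 CPM in EtOH_3d seedlings, against 27.6, 16.9 and 16.3 CPM in moc_3d seedlings. Again moc_3d replicate 1 was the highest, and without it the change of -0.89 ± 0.19 (SE, adjusted p = 0.0139) was -0.62. It was not called without EtOH_3d replicates 1 or 3 or moc_3d replicate 1 (adjusted p = 0.0657 to 0.226). LSU1 was the 1 call by edgeR among 18 sulfur genes, all tested, where 0.114% of all genes tested were called lower. DESeq2 and limma-voom called 0 of the 18. Of the 18 sulfur genes 3 had positive values, against 49.8% of all genes tested. Their median was -0.22, or -0.17 without moc_3d replicate 1. Summed, the sulfur genes stood at 810.3, 830.4, 771 and 813 CPM in EtOH_3d and 987, 891 and 884 CPM in moc_3d, without overlap. Among the rest, the sulfate importer SULTR1;2 had 43.1, 52.4, 49.2 and 42.4 CPM in EtOH_3d seedlings, against 58.5, 61.6 and 58.5 CPM in moc_3d seedlings, a change of -0.35 ± 0.10 that missed the threshold (adjusted p = 0.0662). UMAMIT14, an amino acid exporter, had 5.58, 4.30, 6.14 and 8.15 CPM in EtOH_3d seedlings, against 20.7, 10.9 and 12.8 CPM in moc_3d seedlings. The change of -1.24 ± 0.27 (SE, adjusted p = 0.028) was -0.95 without moc_3d replicate 1, and it was not called without EtOH_3d replicates 1, 2 or 3 or moc_3d replicate 1 (adjusted p = 0.0924 to 0.158). CORI3, a jasmonate-induced cystine lyase, had 19.2, 18, 20.5 and 21.6 CPM in EtOH_3d seedlings, against 44.1, 24.6 and 30.4 CPM in moc_3d seedlings. Its change of -0.71 ± 0.17 (SE, adjusted p = 0.0437) was not called without EtOH_3d replicates 1, 2, 3 or 4 or moc_3d replicates 1 or 4 (adjusted p = 0.0897 to 0.256). LTP3, a lipid transfer protein, stood at 25.3, 23.6, 23.6 and 24.5 CPM in EtOH_3d seedlings, against 45.2, 31.5 and 30.4 CPM in moc_3d seedlings. Its change of -0.54 ± 0.13 (SE, adjusted p = 0.0233) was not called without EtOH_3d replicates 2, 3 or 4 or moc_3d replicate 1 (adjusted p = 0.0501 to 0.451).

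The remaining lower genes were few. EXPB3, a beta-expansin (-0.41 ± 0.09), and GH9C2, an endoglucanase family gene (-0.37 ± 0.08), act on cell walls. PPC3, a phosphoenolpyruvate carboxylase, had -0.42 ± 0.10, the triacylglycerol lipase-like TLL1 -0.41 ± 0.08, the NmrA-like AT1G75280 -0.40 ± 0.08 and the aspartyl protease AT3G61820 -0.36 ± 0.08. AT1G03820, an E6-like gene, had -0.48 ± 0.11, AT3G15350, of a glycosyltransferase family, -0.74 ± 0.19, and the uncharacterized AT3G44450 -0.63 ± 0.14. All 9 had an adjusted p between 0.00216 and 0.0457 by edgeR. TLL1 and AT1G75280 were not called without moc_3d replicate 1 (adjusted p = 0.103 and 0.0977), nor GH9C2 without EtOH_3d replicate 1 or moc_3d replicate 4 (adjusted p = 0.0685 to 0.109). The other 6 were called in 2 or 3 of the 7 fits that leave out 1 library.

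In all, without moc_3d replicate 1, 35 of the 81 higher and 4 of the 21 lower genes were still called, and 4 further genes entered, for a total of 43. All 102 kept their sign, with median changes of 0.37 for the higher and -0.38 for the lower genes, against 0.40 and -0.42 with all 7 libraries. Without EtOH_3d replicate 2, 70 and 13 of them were still called. With both of these libraries left out, 36 genes were called, 35 of them higher. There were 58 higher and 10 lower calls without EtOH_3d replicate 3, 87 higher and 37 lower without EtOH_3d replicate 4, and 52 higher and 19 lower without moc_3d replicate 4. Across the 7 fits that leave out 1 library each, 28 genes were called every time, 26 higher and 2 lower, and 17 genes were called under each of the 17 alternatives.

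**Figure D4:**
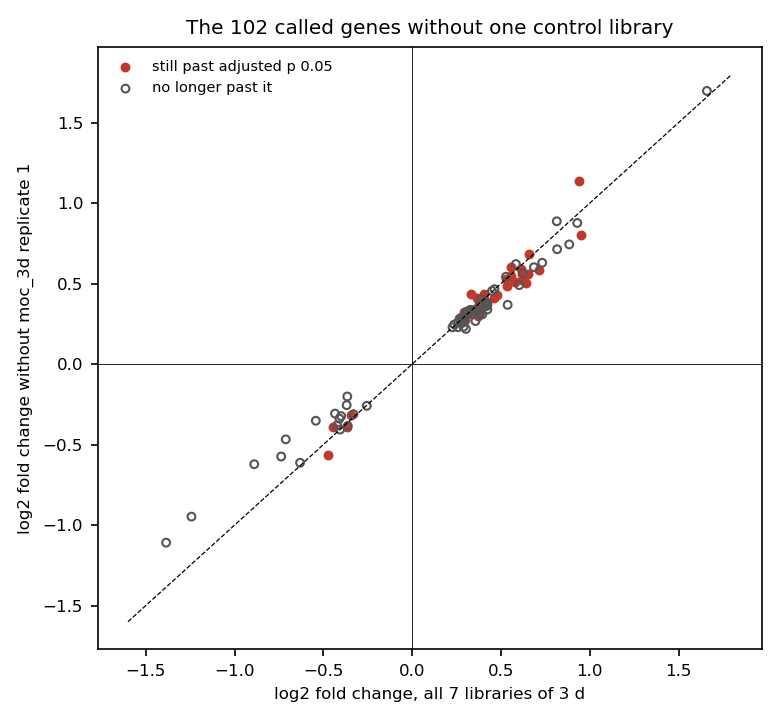
Log2 fold change of the 102 called genes with all 7 libraries of 3 d (x axis) and without moc_3d replicate 1 (y axis). Filled points were still past an adjusted p of 0.05 (39 genes), open points were not, and the dashed line marks equal values. All points keep their sign.

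Most chloroplast-encoded transcripts had small positive values, and few passed the test. Of 88 such loci 86 were tested, 78 had positive values and the median log2 fold change was 0.39. These loci were counted in the same libraries and can rise and fall together, so the 78 are not separate observations. Over all genes tested, 49.8% were positive and the median was -0.0011. They summed to 18090, 19093, 16112 and 15691 CPM in EtOH_3d and 10695, 13280 and 14900 CPM in moc_3d, with no overlap, although EtOH_3d replicate 4 was close to moc_3d replicate 4. By edgeR 2 of them were called, both higher, against 0.44% of all genes tested. ATCG00740 had 929, 899, 925 and 761 CPM in EtOH_3d seedlings, against 609, 729.6 and 696 CPM in moc_3d seedlings, at 0.37 ± 0.06 (SE, adjusted p = 0.000356). ATCG00420 had 11.0, 22.8, 19.5 and 17.5 CPM in EtOH_3d seedlings, against 11.2, 7.2 and 11.6 CPM in moc_3d seedlings, at 0.81 ± 0.19 (SE, adjusted p = 0.021). EtOH_3d replicate 1 lay among the controls. It was not called without EtOH_3d replicates 2, 3 or 4 or moc_3d replicates 1 or 2 (adjusted p = 0.0509 to 0.222). Leaving out moc_3d replicate 1 gave a list median of 0.33, and leaving out EtOH_3d replicate 2 one of 0.29. The list's median at 1 d was 0.28, so positive values were not limited to 3 d. Chloroplast genes took 1.53% to 2.28% of the counts in EtOH_1d and 1.59% to 1.83% in moc_1d replicates 2 to 4. Nuclear genes for the same organelle had medians near 0. The 22 light-harvesting and Rubisco genes had a median of 0.0090 and 0 calls by edgeR, DESeq2 or limma-voom (1 higher and 1 lower at an unadjusted p under 0.05). The 8 genes of plastid sigma factors and phage-type polymerases, which transcribe the chloroplast genome, had a median of -0.06 and 0 calls by any of the 3 tools, with 0 at an unadjusted p under 0.05.

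Several higher genes outside the lists held in every fit that left out 1 library. AT2G05540, a glycine-rich protein, had 147, 155, 161 and 147 CPM in EtOH_3d seedlings, against 60.4, 90.5 and 84.5 CPM in moc_3d seedlings. It was the largest of these changes, at 0.95 ± 0.11 (SE, adjusted p = 5.81e-05), with the groups far apart and moc_3d replicate 1 the lowest. Genes of membranes and water transport included the tonoplast aquaporin DELTA-TIP, with 893, 826, 1040.1 and 904 CPM in EtOH_3d seedlings, against 649, 787 and 670.3 CPM in moc_3d seedlings, and PATL1, a lipid-binding patellin of membrane traffic, with 313, 366, 386 and 346 CPM in EtOH_3d seedlings, against 272, 297 and 259 CPM in moc_3d seedlings. Their changes were 0.38 ± 0.06 and 0.35 ± 0.07 (SE, adjusted p = 0.000222 and 0.00114). PCAP1, a plasma membrane cation-binding protein, rose by 0.36 ± 0.07, the chloroplast J-domain co-chaperone J8 by 0.30 ± 0.06, and the monooxygenase MO1 by 0.53 ± 0.09. The others among the 25 with the smallest p were AT1G49500 (0.40 ± 0.06), which shares a stretch of 138 nt at 95.7% identity with AT5G17600, AT1G22890 (0.61 ± 0.10), AT2G15960 (0.40 ± 0.07), AT4G29905 (0.40 ± 0.07), AT1G61740 (0.48 ± 0.09), AT3G10020 (0.34 ± 0.06) and AT2G20670 (0.35 ± 0.07). Further called genes, chosen after their values were seen, include TDT, the malate carrier of the tonoplast (0.39 ± 0.09), the aquaporin PIP1;5 (0.28 ± 0.07), PATL2 (0.60 ± 0.11), the abscisic acid receptor PYR1 (0.37 ± 0.09), the peptide hormone precursor PSK4 (0.56 ± 0.12) and the F-box gene AT1G80440 (0.27 ± 0.07), known as KMD1 and tied to cytokinin signalling. Each of these 6 lost its call in 1 or more of the fits that left out 1 library.

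Genes that handle ethanol showed no call. All 15 genes of ethanol and acetate metabolism were tested, and 0 passed by edgeR, DESeq2 or limma-voom, with 1 higher at an unadjusted p under 0.05 and a median of -0.05, or 0.011 without moc_3d replicate 1. ADH1, alcohol dehydrogenase, had 25.7, 23.4, 37.7 and 70.5 CPM in EtOH_3d seedlings, against 72.3, 33.6 and 58.7 CPM in moc_3d seedlings. The groups overlapped widely, EtOH_3d replicate 4 and moc_3d replicate 1 being the highest, and the 95% interval of -1.28 to 0.40 leaves room for changes in either direction. The aldehyde dehydrogenase ALDH2B4 had 108, 114, 109 and 119 CPM in EtOH_3d seedlings, against 108, 102 and 107 CPM in moc_3d seedlings, a change of 0.09 ± 0.07 with an interval of -0.05 to 0.23. Acetyl-CoA synthetase, ACS, had 51.9, 54.3, 49.2 and 61.5 CPM in EtOH_3d seedlings, against 57.6, 58.1 and 52.5 CPM in moc_3d seedlings, at -0.05 ± 0.09 and an interval of -0.23 to 0.14. AT4G33070, the pyruvate decarboxylase PDC1, had -0.26 ± 0.33 (adjusted p = 0.892). Levels of 14 hypoxia genes, among them ADH1, summed to 191, 164, 215 and 363 CPM in EtOH_3d and 376, 192 and 310.5 CPM in moc_3d. The range within each group was wider than the gap between the group means. Their median of -0.22 became -0.05 without moc_3d replicate 1, with 0 calls by edgeR, DESeq2 or limma-voom and 0 at an unadjusted p under 0.05.

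Cold-response genes, which the series title brings to mind, showed no call among 20 tested by edgeR, DESeq2 or limma-voom, with 3 higher and 2 lower at an unadjusted p under 0.05. The dehydrin COR47 had 336, 349, 381 and 377 CPM in EtOH_3d seedlings, against 317, 305 and 324 CPM in moc_3d seedlings. Its groups did not overlap and the change of 0.19 ± 0.06 was small (adjusted p = 0.18). COR15A, a chloroplast protectant, had 76.1, 108, 88.5 and 138 CPM in EtOH_3d seedlings, against 196, 110.1 and 116 CPM in moc_3d seedlings, with moc_3d replicate 1 the highest, and a change of -0.45 ± 0.28 (adjusted p = 0.714). RD29A, listed as LTI78, had -0.22 ± 0.13 (adjusted p = 0.652). The transcription factors CBF1, CBF2 and CBF3 (listed as DREB1A), which start the cold response, averaged under 4 CPM in both groups. Their log2 fold changes were -0.21 ± 0.58, -1.12 ± 0.42 and -0.72 ± 0.35, with adjusted p of 0.952, 0.344 and 0.558. The median of the cold list was -0.07, and 0.05 without moc_3d replicate 1.

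Stress and hormone lists varied with moc_3d replicate 1. The 21 iron genes had a median of -0.35, which was -0.10 without that library, and 0 calls by edgeR, DESeq2 or limma-voom (4 lower at an unadjusted p under 0.05). IRT1, the root iron importer, had 29.0, 32.2, 28.8 and 22.5 CPM in EtOH_3d seedlings, against 82.1, 23.5 and 33.5 CPM in moc_3d seedlings, so a single control was high and the other controls overlapped the ethanol libraries. The bHLH38 factor of iron deficiency had 5.58, 7.79, 5.99 and 10.1 CPM in EtOH_3d seedlings, against 39.3, 8.72 and 8.41 CPM in moc_3d seedlings, in the same pattern. Of 19 tested jasmonate genes CORI3 alone was called by edgeR, while DESeq2 called 1 member and limma-voom 0. The list's median of -0.22 was 0.19 without moc_3d replicate 1. VSP1, a jasmonate-induced storage protein, stood at 20.6, 25.5, 19.1 and 26.4 CPM in EtOH_3d seedlings, against 142, 35.4 and 19.7 CPM in moc_3d seedlings, with that library far above the rest. Summed, jasmonate genes gave 634, 738, 689 and 809.8 CPM in EtOH_3d and 1335, 684 and 737 CPM in moc_3d. By contrast the 14 flavonoid genes had a median of -0.30 with that library and -0.26 without it, with 0 called by edgeR, DESeq2 or limma-voom and 6 lower at an unadjusted p under 0.05. In F3H, a flavanone hydroxylase, the groups did not overlap (18, 15.0, 18.4 and 14.2 CPM in EtOH_3d seedlings, against 21.8, 23.4 and 23.7 CPM in moc_3d seedlings), and the change of -0.48 ± 0.14 had an adjusted p of 0.108. The glucosinolate list had a median of -0.06 and 0 calls by edgeR or limma-voom, 1 by DESeq2 and 5 lower at an unadjusted p under 0.05. CYP79F1, the first enzyme of aliphatic glucosinolates, stood at 100.4, 96.2, 96.6 and 97.3 CPM in EtOH_3d seedlings, against 119, 119 and 117 CPM in moc_3d seedlings, just short of the threshold (adjusted p = 0.0503).

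Other lists had no call by edgeR, DESeq2 or limma-voom. Their medians were -0.03 for starch metabolism (19 tested, 1 lower at an unadjusted p under 0.05), -0.20 for salicylic acid defence (10 tested, 1 higher and 1 lower), -0.08 for heat shock and folding (15 tested, 1 lower), 0.06 for the circadian clock (17 tested, 4 higher and 2 lower), 0.10 for auxin and growth (11 tested, 2 of each) and 0.11 for antioxidant enzymes (7 tested, 2 higher). Without moc_3d replicate 1 the medians were -0.06 for salicylic acid defence, -0.02 for heat shock and folding and -0.0077 for antioxidant enzymes. The 295 tested genes of cytosolic ribosomal proteins had a median of -0.04, with 79 positive, 2 higher and 15 lower at the unadjusted threshold, and the 18 tested mitochondrial genes one of 0.12 (0.05 without moc_3d replicate 1) with 1 higher. Among 5 tested flowering markers, with 0 at the unadjusted threshold, the median of -0.20 was 0.12 without moc_3d replicate 1.

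The response at 3 d was set against that at 1 d, in libraries that are all different. At 1 d, edgeR called 0 of 18419 genes (0%), with 795 at an unadjusted p under 0.05 and a smallest adjusted p of 0.0908. For 65 of the 81 higher genes the 1 d value was above 0 too (median over the 81 of 0.09), and for 10 of the 21 lower genes it was below 0 (median 0.0018). A test of the difference itself called 8 genes (0.0434%), with 1025 at an unadjusted p under 0.05. The dark-inducible DIN10 is among them. At 3 d it stood at the values given above, and at 1 d it had 188, 193, 200.1 and 163 CPM in EtOH_1d and 178, 182 and 183 CPM in moc_1d. EtOH_3d thus stood above the other 3 groups, and the responses differed by 0.58 ± 0.11 on the log2 scale (SE, adjusted p = 0.0129). MO1 had 76.8, 61.0, 69.2 and 69.8 CPM in EtOH_3d and 47.7, 49.0 and 47.5 CPM in moc_3d, against 50.4, 53.4, 47.0 and 48.0 CPM in EtOH_1d and 52.0, 45.5 and 56.7 CPM in moc_1d, so EtOH_3d was again the highest group. Across 20 alternative fits the difference was called in 13 for DIN10 and in 6 for MO1. AT3G15450 changed by 0.26 ± 0.06 at 1 d and BT2 by 0.26 ± 0.07, and for neither did the responses differ past the threshold (adjusted p = 0.728 and 0.641). TPS8 changed by 0.38 at both durations (adjusted p = 0.0908 at 1 d by edgeR). The median of the energy starvation list at 1 d was 0.18, against 0.0031 for all genes tested, so positive values were not limited to 3 d. In many other called genes the moc_3d mean was the lowest or the highest of all groups. NIA2 averaged 363 CPM in EtOH_3d and 297 CPM in moc_3d, against 369 CPM in EtOH_1d and 378 CPM in moc_1d. Among higher genes the moc_3d mean was also the lowest in DELTA-TIP, PIP1;5, SEN1, BXL1, BGAL4, ATG8E and NIA1. It was not the lowest in AT3G15450, BT1, BT2 or STP1. Among lower genes, GLX1, FD3, TRA2 and GSR2 included, it was the highest in all but AT3G44450 and AT3G61820. In GH9C2 the margin was very small. Why moc_3d differed from moc_1d was not tested.

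**Figure D5:**
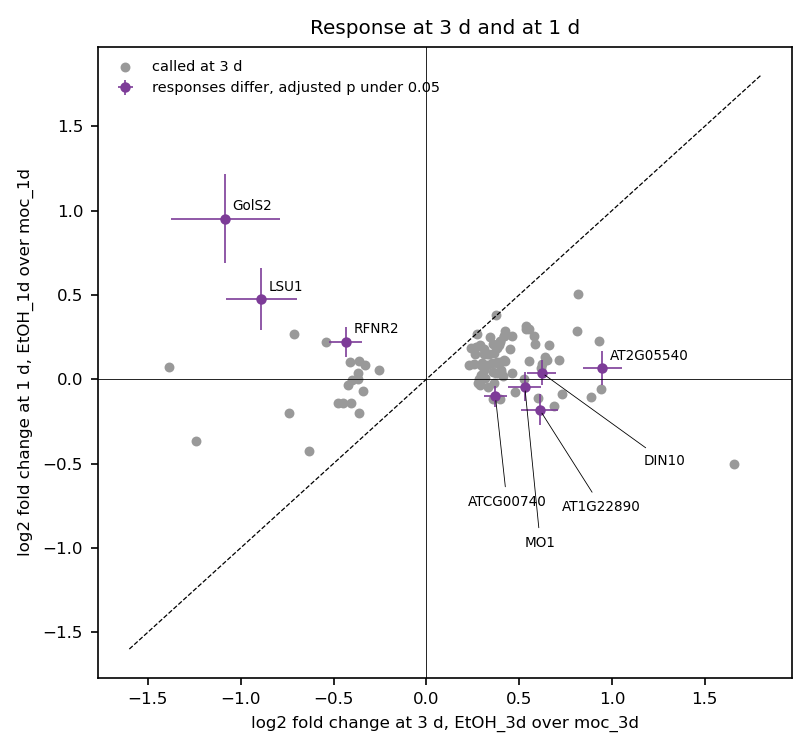
Log2 fold change at 3 d (x axis, EtOH_3d over moc_3d) and at 1 d (y axis, EtOH_1d over moc_1d) for the called genes of 3 d in grey and for the 8 genes whose responses differ in purple, with SE bars. Higher genes of 3 d have a median of 0.09 on the y axis, and 6 of the 8 genes in purple have opposite signs on the axes, although no 1 d value passed the test.

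Some of these values may mix loci. Of the 102 called genes 24 overlap another counted locus, 21 of them on the opposite strand, and no source used here says whether reads were counted by strand. Of the 24 neighbours 20 were tested and 0 were called by edgeR. AT3G15450 overlaps AT3G15460 by 41 bases, and that neighbour stood at 9.62 CPM in EtOH_3d and 12.9 CPM in moc_3d. STP1 overlaps AT1G11270 by 438 bases, which stood at 4.02 CPM in EtOH_3d and 3.64 CPM in moc_3d. DIN10 and BGAL4 overlap AT5G20260 and AT5G56880, whose counts were too low to be tested. The clock-regulated gene CCL (AT3G26740), called at 0.24 ± 0.05, carries a repeat found at other loci.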

How the data were processed

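RNA of whole Arabidopsis thaliana seedlings was sequenced by Lasy-Seq, a 3' method, per the labels' protocols. The authors deposited raw counts per locus for 16 columns, and bcl2fastq, Trimmomatic, HISAT2, featureCounts and the build TAIR10 are named in the submitters' processing notes, without versions or settings. Their DESeq2-normalised table was not used. Low genes were removed with filterByExpr, libraries were scaled by TMM, and edgeR 4.0.16 (R 4.3.3) fitted its quasi-likelihood model to 14 libraries of 4 groups that share 1 estimate of spread. P-values were adjusted by Benjamini-Hochberg over the 18419 genes tested, with a threshold of 0.05. DESeq2 1.42.0, limma-voom (limma 3.58.1), other scalings, no low-count filter, left-out libraries, a replicate block and the doubled columns were alternatives. Errors after ± are SE for log2 fold changes and SD for CPM, and floors of 3 counts cover counting error only. On simulated data of 18236 genes for this comparison, edgeR recovered 41% of changes of 0.5 and 72% of changes of 1 on the log2 scale, with 4 false calls.

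The columns moc_3d replicate 3 and moc_1d replicate 1 held identical counts, and both were left out because either label may be wrong. Within groups, other pairs of 3 d libraries differed by a mean chi-square of 2.52 to 3.59 per gene, above the value of 1 of sampling noise. Gene names, positions and promoters came from TAIR10.1 (RefSeq), which matched 26719 of 27416 loci; chloroplast loci are given by code alone. BLAST 2.17.0 was used to look for near-copies of 99 called loci. The text names the 25 called higher genes with the smallest p, all 21 lower ones, every called list member, the 8 genes of the 3 d against 1 d test and a set of ethanol and cold genes. The 27 gene lists written by hand and 3 made by rule, the members and the tests were chosen with earlier results of these data known.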

Additional observations from a re-analysis of the deposited data

Results flagged for a closer look

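Among 102 sets of 4 EtOH_3d values tested for a library far from the others, 2 had one, where chance gives about 1 in 20, or 5.1. CBF1 stood at 4.30 CPM in EtOH_3d replicate 2 and at 0.744 to 0.945 CPM in the other EtOH_3d libraries. The summed level of the 9 bZIP factors was 453.7 CPM in EtOH_3d replicate 2 and 492.5 to 498.6 CPM in the others.

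Responses at 3 d and 1 d were unequal for 8 genes by edgeR's test of the difference itself. The difference of log2 fold changes (3 d minus 1 d) was 0.79 ± 0.13 for AT1G22890 (SE, adjusted p = 0.00441), whose 1 d levels were 45.3, 43.4, 39.0 and 41.0 CPM in EtOH_1d and 45.1, 48.6 and 50.5 CPM in moc_1d. It was 0.88 ± 0.14 for AT2G05540 (adjusted p = 0.0201), with 169, 178, 180.2 and 139 CPM in EtOH_1d and 155, 159.6 and 162 CPM in moc_1d. For both, the moc_3d libraries were the lowest of the 4 groups. DIN10 had 0.58 ± 0.11 (adjusted p = 0.0129), MO1 0.58 ± 0.12 (adjusted p = 0.049996) and ATCG00740 0.47 ± 0.09 (adjusted p = 0.0129). In ATCG00740 too the moc_3d mean was the lowest of the 4 groups.

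In the other 3 genes the log2 fold change was below 0 at 3 d and above 0 at 1 d. In each of these 3 the moc_3d mean was the highest of all groups, and moc_3d replicate 1 was the highest library. None of the 1 d values passed (adjusted p = 0.533 for GolS2 and 0.9996 for LSU1 and RFNR2), and GolS2 did not pass at 3 d (adjusted p = 0.0662). GolS2, a galactinol synthase, had 2.98, 1.88, 3.31 and 3.01 CPM in EtOH_3d and 9.15, 3.60 and 5.95 CPM in moc_3d, and 6.27, 4.16, 6.07 and 6.09 CPM in EtOH_1d and 3.33, 3.2 and 2.13 CPM in moc_1d. Its responses differed by -2.04 ± 0.40 (adjusted p = 0.0161). LSU1 had 14.9, 14.8, 13.6 and 9.46 CPM in EtOH_1d and 11.5, 8.97 and 7.38 CPM in moc_1d, a difference of -1.36 ± 0.27 (adjusted p = 0.0287). RFNR2 had 88.8, 72.2, 75.2 and 85.2 CPM in EtOH_1d and 71.4, 74.2 and 61.2 CPM in moc_1d, a difference of -0.66 ± 0.13 (adjusted p = 0.0201). Across 20 alternative fits the difference was called in 19 for AT1G22890, 14 for ATCG00740, 13 for DIN10, 12 for GolS2, 10 each for RFNR2 and AT2G05540, 8 for LSU1 and 6 for MO1.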

How the results depend on the processing

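Fits of the 102 calls (81 higher, 21 lower) that left out 1 of the 7 libraries gave 43 to 124 calls in all, 39 to 89 higher and 4 to 37 lower. The fewest came without moc_3d replicate 1. Leaving out EtOH_3d replicate 2 and moc_3d replicate 1 together, chosen after seeing the data, gave 36, 35 and 1. With no low-count filter 196 genes passed, 144 higher and 52 lower. The 16 columns as labelled gave 66, with 6 lower. With limma-voom 71 passed, 60 higher and 11 lower, of which 66 were among the 102. DESeq2 called 121, of which 92 were among the 102, and other scalings 102 and 103. The 8 differences between 3 d and 1 d were 13 by DESeq2, 2 by limma-voom, 0 with 16 columns, 4 without the 2 libraries together and 1 to 23 when single libraries were left out. A replicate block gave 73 calls, 60 higher and 13 lower, of which 62 were among the 102, and 10 differences. Same-numbered libraries did not deviate together over all genes (correlations of -0.0090, 0.00094 and 0.032). A plate or day shared by a number could leave no such trace, so whether the numbers pair the samples was not settled.

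Single genes were followed under the alternatives for the 70 genes named by rule, which leaves out 42 other called genes. The 70 include ethanol and cold genes that no fit called, and these count as keeping their side. Of 1175 such values, 966 kept their side of the threshold and 209 lost the call but kept direction. The cause was not tested. A reversal was counted only where a gene passed in either fit, and there were 0. Uncalled genes could change sign, as CBF1 did (-0.21 in the main fit, 0.62 without moc_3d replicate 1). Of 510 list medians 509 moved by less than the spread between replicates, and that of ethanol and acetate metabolism was 0.10 with both libraries out. Depth limits low genes such as the CBF factors.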
